A study of Mus musculus with 4 samples.

Results

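Transcripts of glucose breakdown and of the response to low oxygen were followed in mouse hepatoma cells exposed to diethyl maleate (DEM), a thiol-reactive electrophile. The set comprised 37 genes chosen by name: 3 glucose transporters, 15 glycolytic enzymes, 2 PFKFB enzymes that set the level of a glycolytic activator, 3 genes of pyruvate and lactate fate, 2 alpha subunits of the hypoxia-inducible factor (HIF), 4 genes that mark those subunits for destruction, and 8 HIF targets outside glycolysis. A probe was taken for a gene where its name in the array files was a RefSeq transcript of that gene, which gave 58 probes for 36 of the 37 genes, out of 32301 named features. Vhl was not analysed here. Of the 36, 33 had a probe well above background, as the scanner software flags it, on at least 2 of the 4 arrays and entered the test. Slc2a2, Pdk3 and Adm were not well above background on any array.

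The cells were Hepa1c1c7, a single established mouse liver tumour line grown in culture. The DEM group received 100 µM DEM for 6 hours and the control group received the solvent dimethyl sulfoxide (DMSO) for the same time, with no other agent or genetic alteration named. Each group held 2 RNA samples, each read on its own 1-colour Agilent array. The samples are called independent, but separate cultures are not stated, and what the p-values weigh is the scatter between arrays of a group, part or all of which may be technical. The RNA extraction text speaks of liver although all other labels name the cell line.

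Glycolysis converts glucose to pyruvate, and much of that pyruvate becomes lactate when oxygen is short or when tumour cells grow fast. HIF is a transcription factor whose alpha subunits are made continuously, hydroxylated by oxygen-dependent prolyl hydroxylases (the Egln genes) and then destroyed through Vhl. When oxygen falls the subunits persist, bind the core letters ACGTG or GCGTG in DNA and switch on genes for glucose import, nearly every glycolytic step, mitochondrial clearance, acid handling and blood vessel growth, so glycolytic enzymes and the other targets are usually read together as a hypoxia response.

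The HIF core letters were common before the start sites of these genes. Promoter windows, the 250 bases before each RefSeq start site on build GRCm38.p6, were present for 33 of the 37 genes, with 49 windows in all because a gene can have several starts. Either spelling was searched on both strands, and one or the other occurred in 40 of the 49 windows (81.6%) and in 29 of the 33 genes. The same letters occurred in 38.6% of 32851 promoters of that length. That share is per window, and the share of all genes with a match was not counted. Windows of neighbouring starts can overlap, so the same site can count more than once. Counted with or without the other spelling, ACGTG was in 51.0% of the members' windows against 16.6% of all promoters. Counted likewise, GCGTG was in 55.1% against 28.2%. TGACNNNGC, the core of the antioxidant response element bound by NRF2, was in 4 of the 49 windows (8.16%) against 10.2% of all promoters. The letters CACGTG count for ACGTG on both strands. The windows of 4 genes are printed because they pair Bnip3 and Slc2a1, the members higher in DEM at an unadjusted p under 0.05, with textbook HIF-target enzymes, Ldha and Pgk1, whose readings stayed near zero; these 4 were chosen after their values were seen. They lie at chr7:138909507-138909756 on the minus strand (Bnip3), chr4:119108495-119108744 on the plus strand (Slc2a1), chr7:46845554-46845803 on the plus strand (Ldha, the first of its starts) and chrX:106186850-106187099 on the plus strand (Pgk1). Each runs 5′ to 3′ toward the start site, and capitals mark ACGTG or GCGTG on either strand, so that CACGT and CACGC are the same letters read from the other strand.
Bnip3: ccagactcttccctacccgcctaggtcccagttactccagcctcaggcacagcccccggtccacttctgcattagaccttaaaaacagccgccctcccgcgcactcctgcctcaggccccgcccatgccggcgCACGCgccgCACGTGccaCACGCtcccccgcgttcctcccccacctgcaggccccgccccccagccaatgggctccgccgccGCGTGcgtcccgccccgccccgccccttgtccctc
Slc2a1: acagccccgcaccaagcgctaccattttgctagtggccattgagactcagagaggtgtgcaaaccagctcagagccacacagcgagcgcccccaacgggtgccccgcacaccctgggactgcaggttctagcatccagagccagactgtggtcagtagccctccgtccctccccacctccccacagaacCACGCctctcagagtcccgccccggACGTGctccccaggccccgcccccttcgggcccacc
Ldha: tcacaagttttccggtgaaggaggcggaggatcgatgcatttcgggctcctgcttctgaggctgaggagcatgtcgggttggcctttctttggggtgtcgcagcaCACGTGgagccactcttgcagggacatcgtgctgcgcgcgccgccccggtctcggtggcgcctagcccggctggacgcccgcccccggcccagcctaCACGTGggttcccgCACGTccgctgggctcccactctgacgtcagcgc
Pgk1: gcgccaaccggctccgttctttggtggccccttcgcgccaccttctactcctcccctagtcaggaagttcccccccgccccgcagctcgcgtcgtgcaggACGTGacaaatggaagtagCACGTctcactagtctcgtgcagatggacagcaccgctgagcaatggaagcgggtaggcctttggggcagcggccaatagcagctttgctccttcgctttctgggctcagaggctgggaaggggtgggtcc
All 4 windows held the HIF core letters. The other Ldha window, which is not printed, held 0 ACGTG and 1 GCGTG. Bnip3 had a CACGTG 107 bases before the start and GCGTG at 3 places, and Slc2a1 had ACGTG 36 bases before the start with GCGTG on the other strand at 61. Ldha had CACGTG 144 and 47 bases before the start and a further CACGT at 34, and Pgk1 had ACGTG at 150 and, on the other strand, at 131. A match is a run of letters in this window and was not measured as a bound site.

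The scanner flagged 50.4% to 52.6% of the 41174 probes on an array as well above background, and 0 spots as saturated. Arrays of a group correlated at r = 0.9940 (DMSO) and 0.9942 (DEM) across the 15537 genes tested, and arrays of different groups at 0.9893 to 0.9910; genes are not independent replicates. A gene was called where its limma p-value, adjusted over all 15537 genes by Benjamini-Hochberg, was below 0.05, and 190 genes (1.22%) were called, 111 higher and 79 lower. The higher calls were 58.4% of the total, but 71.3% when arrays were scaled on their medians and 35.9% when scaled on spike-in probes. Without DMSO replicate 1 or without DMSO replicate 2 the count was 0, with 2113 and 2015 genes at an unadjusted p under 0.05, and it was 121 and 102 when DEM replicates 1 and 2, in that order, were left out. The NRF2 targets Nqo1 and Hmox1, which detoxify quinones and break down haem, rose 5.10-fold and 23.4-fold (limma adjusted p = 0.0125 and 0.00442, n = 2 arrays per group). Of the 15 hepatoma and hepatocyte genes with a probe, 8 were well above background on all 4 arrays: Afp, Alb, Krt8, Krt18, Foxa2, Apoa2, Trf and Ahr. Apob was on 3, and Ttr, Apoa1, Hnf4a, Fga, Fgb and Apoh were on none. Of the leukocyte genes Csf1r, Cd14 and Cd3e were on all 4 and Adgre1, Itgam and Clec4f on none, and of the endothelial genes Stab2 and Lyve1 were on all 4 and Pecam1, Cdh5 and Kdr on none. In addition, 6 of 8 stellate and fibroblast genes and 4 of 5 cholangiocyte genes were on all 4, and Lrat and Epcam on none. Summed signal, relative to each array's 75th percentile, was 801 to 847 in DMSO and 837 to 841 in DEM for the 15 hepatoma and hepatocyte genes with a probe. It was 139 to 148 and 119 to 135 for the fibroblast list, and 168 to 178 and 138 to 158 for the cholangiocyte list; the part of these shifts in the results was not tested. The labels name a single cell line, so signal from these lists does not show that cells of those types were present. In bulk RNA, fewer cells of a type and less RNA per cell cannot be told apart.

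None of the 33 tested members was called by limma, where 1.22% of all genes were (0.714% higher and 0.508% lower). The glycolytic enzymes lay in a narrow band around zero, while the HIF targets outside glycolysis were more spread. The lowest of these was Car9, by a point estimate from a probe not well above background on either DEM array. The highest was Bnip3, 1.98-fold brighter in DEM and just short of the threshold. At an unadjusted limma p under 0.05 there were 3 members (9.09%), Bnip3 and Slc2a1 higher and Slc16a3 lower, against 19.2% of all genes. That order turned with normexp background correction (27.3% of members and 23.0% of all genes) and with spike-in scaling (12.1% and 10.1%). Slc16a3, like Car9, passed the background filter only through the DMSO arrays, which favours a lower DEM reading. With probes required above background on all 4 arrays, which drops Slc16a3 and Car9, the shares were 9.68% of members and 20.1% of all genes. The DEM and DMSO arrays did not overlap for 17 of 33 members (51.5%), 10 higher and 7 lower in DEM, which is near the 50.6% of all genes (24.9% higher and 25.6% lower). The 95% interval lay within a 2-fold difference either way for 28 members (84.8%) and for 88.9% of all genes. The median log2 difference, DEM minus DMSO, was 0.04 over the members and -0.01 over all genes, and 20 members were above zero and 13 below. Other settings called 2 members (Bnip3 and Slc2a1, with normexp background correction and with an intensity trend in the variance) or 1 (Bnip3, with median scaling, spike-in scaling, or probes required above background on all 4 arrays). In data of this size simulated with independent noise from the fit's own variance model, 44.65% of genes given a 2-fold change were called. For a 4-fold change it was 88.75%, so a 2-fold difference can be missed with 4 arrays. Noise shared between arrays was not simulated.

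**Figure D1:**
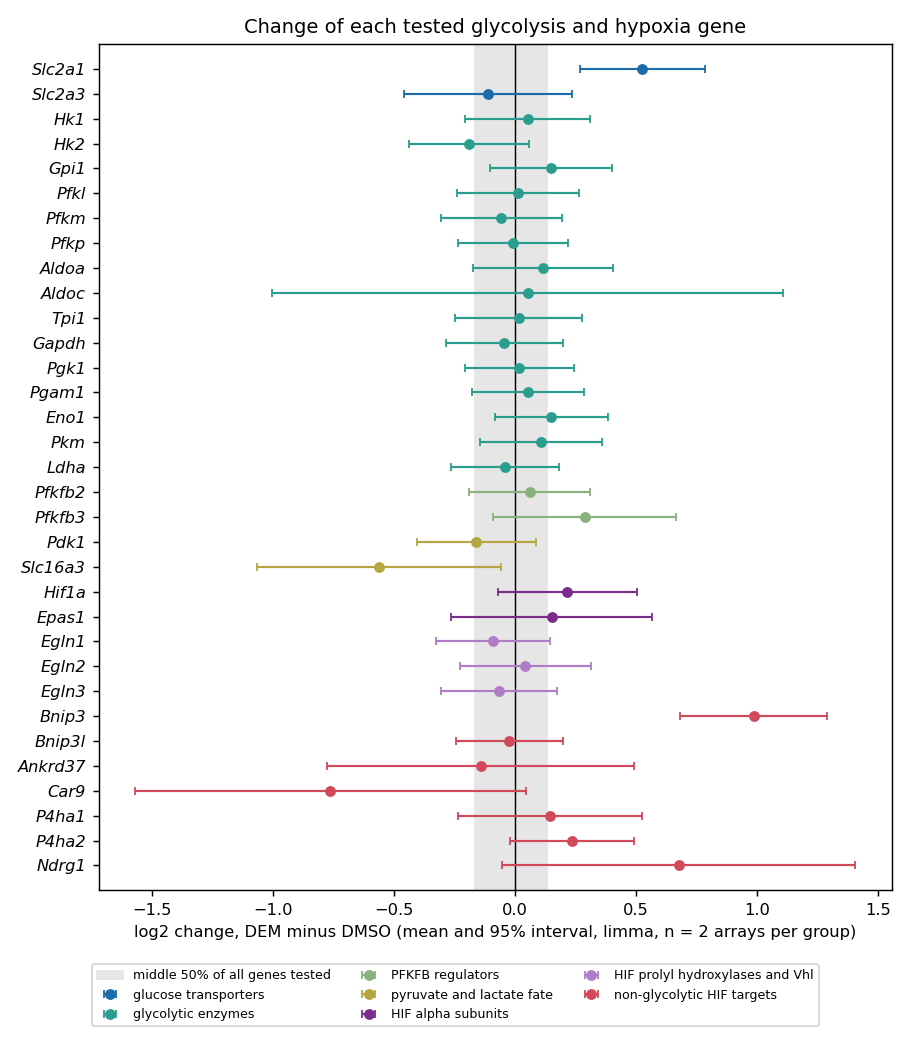
The horizontal axis gives the log2 difference, DEM minus DMSO, for each of the 33 tested genes by role; points are limma estimates, bars their 95% intervals (n = 2 arrays per group), and the grey band the middle 50% of all genes tested. The glycolytic enzymes lie between -0.19 and 0.15, and Bnip3 at 0.99 and Slc2a1 at 0.53 have intervals clear of zero on the high side.

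Glucose enters most cells through transporters of the Slc2a family. For Slc2a1, the basal transporter GLUT1, the log2 level, which is the processed signal relative to the 75th percentile of its array, was 4.36 and 4.30 on the DMSO arrays and 4.79 and 4.92 on the DEM arrays. Both DEM arrays were above both DMSO arrays. The log2 difference was 0.53 ± 0.10 (SE, n = 2 arrays per group; 95% interval 0.27 to 0.78), or 1.44-fold, with a limma adjusted p of 0.0936 that missed the threshold and ranged from 0.0152 to 0.685 over 14 other settings. For Slc2a3, the high-affinity transporter GLUT3, the log2 levels were 1.01 and 0.75 in DMSO and 0.83 and 0.70 in DEM. These groups overlapped, and the difference was -0.11 ± 0.13 (SE; 95% interval -0.46 to 0.24; limma adjusted p = 0.710). Slc2a2, the transporter GLUT2 of mature hepatocytes, was not well above background on any array.

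All 15 glycolytic enzymes were tested and 0 were called by limma, with 0 at an unadjusted p under 0.05 (3 with normexp background correction and 1 with an intensity trend in the variance). Their log2 differences ran from -0.19 (Hk2) to 0.15 (Eno1), a band that also held 55.4% of all genes tested. Their interquartile range was 0.10, against 0.29 for all genes and 0.27 for genes well above background on all 4 arrays. The band was -0.30 to 0.26 with normexp background correction, and its low end was -0.35 with every probe read on its own. The median of the enzymes was 0.02, with 10 above and 5 below zero. With median scaling 14 were above zero, and with spike-in scaling 4. The 95% interval lay within a 1.5-fold difference either way for 14 of the 15, the exception being Aldoc. That held for 65.5% of all genes and 69.4% of those well above background on all 4 arrays. The part of signal level in this tightness was not tested. The DEM and DMSO arrays did not overlap for 6 enzymes (40.0%, against 50.6% of all genes), 4 higher and 2 lower. The median of this group moved to 0.076 without DMSO replicate 1, whose level was above that of DMSO replicate 2 by a median of 0.10 over the enzymes and of 0.04 over all genes.

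Hk2, the inducible hexokinase that commits glucose to the cell, had log2 levels of 3.49 and 3.45 in DMSO and 3.22 and 3.34 in DEM. The DEM arrays were the lower pair, and the difference was -0.19 ± 0.09 (SE; 95% interval -0.44 to 0.06; limma adjusted p = 0.357). Hk1, the constitutive hexokinase, differed by 0.05, and Gpi1, which turns glucose 6-phosphate into fructose 6-phosphate, by 0.15 without overlap of the groups. The other tested Hk1 probes read 0.02, 0.04, 0.02 and, on the dimmest, which was well above background on 3 arrays, -0.35. The phosphofructokinase subunits, which form the committed step, read 0.01 (Pfkl), -0.06 (Pfkm) and -0.01 (Pfkp).

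Below the split of fructose bisphosphate the readings were as small. Aldoa, the main aldolase, read 0.12, Tpi1, which interconverts the triose phosphates, 0.01, and Pgam1, which moves the phosphate of phosphoglycerate, 0.05. Aldoc, the aldolase best known from brain, had log2 levels of -0.78 and -1.69 in DMSO and -0.84 and -1.52 in DEM. The arrays of each group lay far apart for Aldoc and the groups overlapped, so its estimate of 0.05 has a 95% interval of -1.0 to 1.11. Gapdh, the triose phosphate dehydrogenase often used as a reference transcript, stood at 8.31 and 8.21 in DMSO and 8.20 and 8.23 in DEM, a difference of -0.04 with a 95% interval of -0.28 to 0.20.

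Pgk1, which makes the first ATP of the pathway, had log2 levels of 7.23 and 7.20 in DMSO and 7.22 and 7.25 in DEM. The groups overlapped, with a difference of 0.02 ± 0.08 (SE; 95% interval -0.21 to 0.24). Eno1, the enolase, had 2.82 and 2.80 in DMSO and 2.92 and 3.0 in DEM. For Eno1 the DEM arrays were both higher, and the difference was 0.15 ± 0.09 (SE; 95% interval -0.08 to 0.38; limma adjusted p = 0.432). Pkm, the pyruvate kinase, differed by 0.11. Ldha, the lactate dehydrogenase subunit and a standard HIF target, had 6.74 and 6.70 in DMSO and 6.68 and 6.67 in DEM, slightly lower on both DEM arrays. Its difference was -0.04 ± 0.08 (SE; 95% interval -0.26 to 0.18). Gapdh, Pgk1 and Ldha are given in full here because they are standard references, and were chosen after their values were seen.

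**Figure D2:**
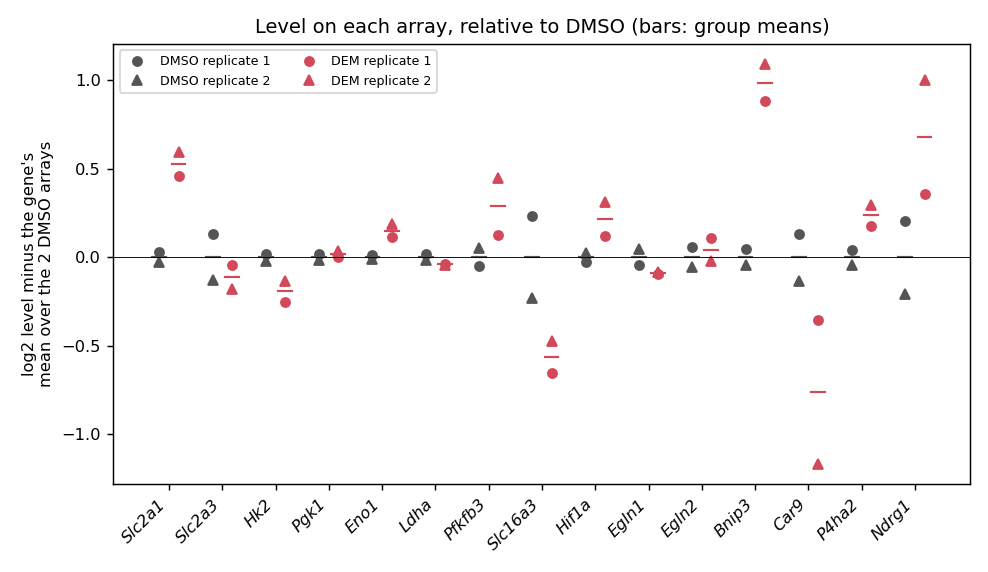
The vertical axis gives the log2 level on each array minus the gene's mean over the 2 DMSO arrays for 15 members; circles and triangles are replicates 1 and 2, and short bars are group means. Both DEM arrays of Bnip3 and Slc2a1 stand above both DMSO arrays, while the points of Ldha and Pgk1 lie almost on the zero line.

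The regulators of glycolytic rate and of pyruvate fate were few and less certain. Pfkfb3, which makes fructose 2,6-bisphosphate and so drives phosphofructokinase, had log2 levels of 1.53 and 1.63 in DMSO and 1.71 and 2.03 in DEM. The groups did not overlap, DEM replicate 2 being highest, and the difference was 0.29 ± 0.14 (SE; 95% interval -0.09 to 0.67; limma adjusted p = 0.363). Its other tested probes, both dimmer, read -0.02 and -0.32, the mean of its probes was -0.02, and without DEM replicate 2 the main probe read 0.13. Pfkfb2, another enzyme of that family, read 0.06. Pdk1, the kinase that keeps pyruvate out of the mitochondrion, read -0.16 without overlap of the groups (limma adjusted p = 0.428), and 0.14 on its other probe. Slc16a3, the lactate exporter MCT4, had log2 levels of -4.38 and -4.85 in DMSO and -5.27 and -5.09 in DEM. It was well above background on both DMSO arrays and on neither DEM array, so its DEM level is uncertain. For a floor, each DEM array took the higher of the probe's own level and the array's lowest level well above background. By this floor DEM was 1.41-fold lower than the DMSO mean, a value without sampling error and not a guaranteed minimum. The fitted difference was -0.56 ± 0.19 (SE, 95% interval -1.07 to -0.06, limma adjusted p = 0.224). The fitted value was -0.15 with normexp background correction and -0.33 without DMSO replicate 1.

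**Figure D3:**
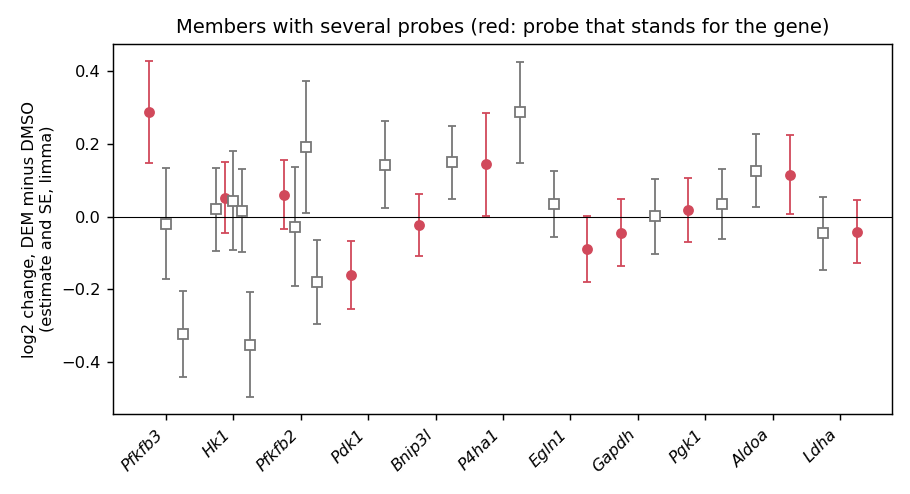
The vertical axis gives the log2 difference, DEM minus DMSO, with its SE for every tested probe of the 11 members that had several; filled red points are the probe with the highest mean, which stands for the gene, and open squares the others. The sign differed between probes for 7 of the 11, with the widest range for Pfkfb3 (0.61) and the narrowest for Ldha (0.0052).

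The genes that control HIF itself showed no call among 5 tested of 6, and their median log2 difference was 0.04, within a range of -0.09 to 0.22. Hif1a, the oxygen-regulated alpha subunit found in most cells, had log2 levels of 1.03 and 1.09 in DMSO and 1.18 and 1.38 in DEM. Both DEM arrays were above both DMSO arrays, and the difference was 0.22 ± 0.11 (SE; 95% interval -0.07 to 0.50; limma adjusted p = 0.368), or 0.12 without DEM replicate 2. Epas1, which encodes the related subunit HIF-2 alpha, read 0.15 with overlapping groups (limma adjusted p = 0.663). Transcript level says nothing of the HIF alpha protein, which is set mainly by its destruction and was not measured.

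The prolyl hydroxylases hold HIF down while oxygen is present, and Egln1 and Egln3 are themselves HIF targets. Egln1, the main oxygen sensor PHD2, had log2 levels of 1.87 and 1.96 in DMSO and 1.82 on both DEM arrays. DEM was slightly lower on both arrays, a difference of -0.09 ± 0.09 (SE; 95% interval -0.33 to 0.14; limma adjusted p = 0.645), and its other probe read 0.04. Egln2 had 2.54 and 2.42 in DMSO and 2.59 and 2.46 in DEM, with overlapping groups and a difference of 0.04 ± 0.10 (SE; limma adjusted p = 0.870). Egln3, often the most hypoxia-inducible of the family, read -0.07 with a 95% interval of -0.30 to 0.17 (limma adjusted p = 0.751).

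The HIF targets outside glycolysis were the most spread of the groups. The 7 tested of 8 had log2 differences from -0.76 (Car9) to 0.99 (Bnip3), an interquartile range of 0.54 and a median of 0.14, with 4 above and 3 below zero and none called. Car9 passed the background filter only through the DMSO arrays, which favours a lower DEM reading. It read -0.10 with normexp background correction, and the next lowest target was Ankrd37 at -0.14. Mean DMSO levels ran from -4.93 (Car9) to 3.60 (P4ha2) here and from -2.09 (Pfkp) to 8.31 (Aldoa) for the enzymes. The part of signal level in the spread was not tested. For 3 of the 7 the 95% interval lay within a 1.5-fold difference, against 14 of 15 enzymes; whether the groups differ was not tested. The median was -0.0098 without DMSO replicate 1, and 0.27 with normexp background correction. Scaling arrays on their medians moved the median of all genes to 0.14, and relative to all genes the enzymes stood at 0.02 under that scaling, under spike-in scaling and as reported. These scalings shift every gene of an array alike, so that match was fixed in advance.

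Bnip3, a mitochondrial protein that promotes cell death and mitophagy, had log2 levels of -0.98 and -1.08 in DMSO and -0.15 and 0.06 in DEM. Both DEM arrays were well above both DMSO arrays, and the distance between the groups was larger than the spread within either. The difference was 0.99 ± 0.11 (SE; 95% interval 0.68 to 1.29), or 1.98-fold, with a limma adjusted p of 0.0509. Over 14 other settings its log2 difference stayed between 0.80 and 1.13 and its adjusted p between 0.00617 and 0.262, and it was called in 5 of them. Bnip3l, its close relative NIX, read -0.02 with a 95% interval of -0.24 to 0.20, and 0.15 on its other probe.

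**Figure D4:**
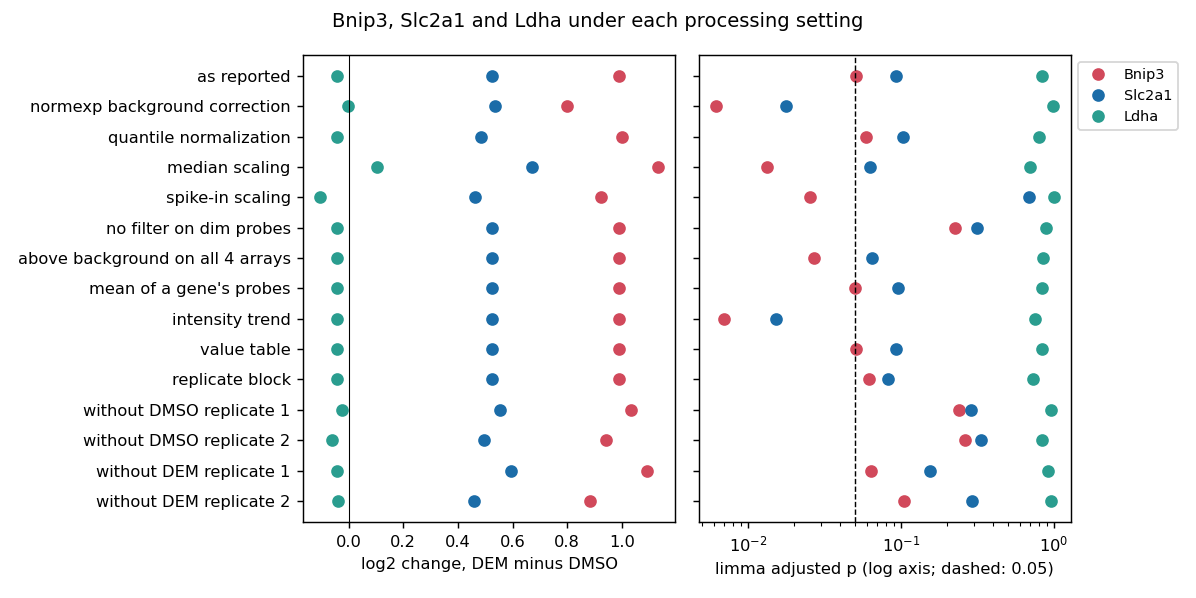
The left panel gives the log2 difference, DEM minus DMSO, and the right panel the limma adjusted p on a log axis with the 0.05 threshold dashed, for Bnip3, Slc2a1 and Ldha in the reported fit and 14 other settings. Bnip3 stays between 0.80 and 1.13 while its adjusted p runs from 0.00617 to 0.262, and Ldha lies between -0.10 and 0.10.

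Ndrg1, a stress-responsive gene strongly induced by hypoxia, had log2 levels of -0.21 and -0.62 in DMSO and -0.06 and 0.59 in DEM. Its groups did not overlap, but the arrays of each lay far apart, and the difference was 0.68 ± 0.27 (SE; 95% interval -0.05 to 1.41; limma adjusted p = 0.285). Leaving out DEM replicate 2 gave 0.36, and leaving out DMSO replicate 2 gave 0.47. P4ha2, a collagen prolyl hydroxylase, had 3.64 and 3.56 in DMSO and 3.77 and 3.89 in DEM. The groups of P4ha2 did not overlap, with a difference of 0.24 ± 0.10 (SE; limma adjusted p = 0.289), and the related P4ha1 read 0.14 with 0.29 on its other probe. Ndrg1 and P4ha2 were added after their values were seen. Car9, the cell-surface carbonic anhydrase that serves as a hypoxia marker, had log2 levels of -4.80 and -5.07 in DMSO and -5.29 and -6.10 in DEM. It was well above background on both DMSO arrays and neither DEM array. With its DEM level set by the same floor as for Slc16a3, it read 1.16-fold lower in DEM, again not a guaranteed minimum. The fitted difference was -0.76 ± 0.30 (SE, 95% interval -1.57 to 0.05, limma adjusted p = 0.280). The fitted value was -0.10 with normexp background correction, -1.17 without DEM replicate 1 and -0.36 without DEM replicate 2. Ankrd37, a hypoxia-induced ankyrin repeat gene, read -0.14 with overlapping groups, and Adm, the vasodilator adrenomedullin, was not well above background.

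Further genes of the same pathways were read beside the members. Of 32 tested among 44 other HIF targets outside glycolysis, 1 was called higher, 1 lower (6.25% in all, against 1.22% of all genes) and 30 neither, with a median log2 difference of 0.03. Vegfa, the growth factor that drives blood vessel formation, had log2 levels of 0.32 and 0.46 in DMSO and 1.97 and 2.40 in DEM. It rose 3.46-fold (log2 difference 1.79 ± 0.17, SE, limma adjusted p = 0.0436), with 1.60 and 1.51 on its other tested probes. Bhlhe40, a transcriptional repressor of the clock and hypoxia responses, had 1.76 and 1.79 in DMSO and 0.56 and 0.57 in DEM. It fell 2.32-fold (log2 difference -1.21 ± 0.08, SE; limma adjusted p = 0.0317), so the 2 called HIF targets moved in opposite directions. When either DMSO array was left out, or no filter on dim probes was set, no gene was called, these included. The Vegfa call was also lost with quantile normalization (limma adjusted p = 0.0566), and that of Bhlhe40 without DEM replicate 1 (0.0522) or DEM replicate 2 (0.0585). Of the 32, 13 (40.6%, against 19.2% of all genes) had an unadjusted p under 0.05, 7 of them with higher and 6 with lower readings in DEM.

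The other lists had no call by limma. Among 13 tested of 25 other glycolytic isozymes 0 were at an unadjusted p under 0.05 and the median was 0.07; the largest difference among those well above background on all 4 arrays was that of Hkdc1, a hexokinase-like gene, at 0.35 ± 0.18 (SE; limma adjusted p = 0.392). Among 11 tested of 14 genes of mitochondrial pyruvate entry and lactate transport the median was 0.07, and of 2 genes at an unadjusted p under 0.05 the readings were higher for 1 and lower for the other, and Pdk4, a further pyruvate dehydrogenase kinase, was at -0.38 ± 0.13 (SE; limma adjusted p = 0.240). Of 4 tested among 8 genes of gluconeogenesis, the reverse pathway, the median was -0.10 and 1 was at an unadjusted p under 0.05. That gene was Pcx, pyruvate carboxylase, with log2 levels of 1.99 and 1.93 in DMSO and 2.67 and 2.85 in DEM, a difference of 0.80 ± 0.10 (SE; limma adjusted p = 0.0592). Of 16 tested among 18 other regulators of HIF the median was 0.08 and 1 was at an unadjusted p under 0.05, Usp20, a deubiquitinase reported to stabilise HIF-1 alpha, at 0.58 ± 0.17 (SE; limma adjusted p = 0.193). For comparison, 9 of 13 NRF2 targets were called, all higher, with a median of 1.32.

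**Figure D5:**
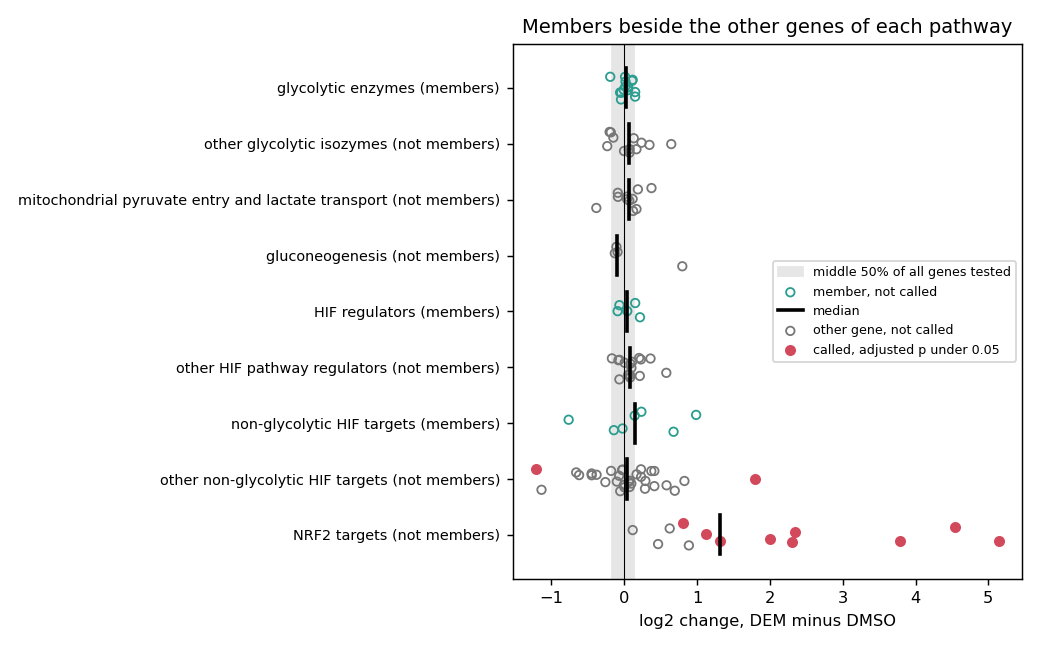
The horizontal axis gives the log2 difference, DEM minus DMSO, of each tested gene in the lists; open points were not called, filled red points were called at a limma adjusted p under 0.05, black bars are medians and the grey band is the middle 50% of all genes. The 15 glycolytic enzymes cluster at zero with a median of 0.02, and the NRF2 targets lie above zero with a median of 1.32. Both groups of HIF targets have points on either side. The lowest member, Car9, passed the background filter only through the DMSO arrays.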

How the data were processed

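Total RNA from 2 DMSO and 2 DEM samples was labelled with Cy3 and hybridised to Agilent mouse arrays annotated on mm9; groups and replicate numbers come from the sample titles. The values are linear processed signals: per the file headers, each is a spot's intensity after background subtraction by Agilent Feature Extraction 10.7.3.1 (protocol GE1_107_Sep09). The value table the authors deposited held the same intensity at all 45018 spots of each array, so it is linear and uncentred.

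From these, log2 minus the 75th percentile of the non-control spots was taken on each array, flagged outlier spots were dropped (22 probes had none left on an array) and spots of a probe were averaged. RefSeq accessions were matched to symbols through a RefSeq table of GRCm38.p6, used only for names and promoters: 26690 probes had 1 symbol and 14484 had none. The probe with the highest mean stood for its gene. The model, lmFit followed by eBayes from limma 3.58.1 under R 4.3.3, had no covariates, and p-values were adjusted over 15537 genes by Benjamini-Hochberg; intervals are 95%. All arrays shared 1 slide and 1 scan time, so neither could be tested, and the number of arrays limits the precision. In 20 simulated sets of the 15537 genes with 200 changed, 4.98% of calls were false. The noise was drawn from the fit's own variance model, independently for each gene and array. A share near the threshold was thus fixed in advance and does not check the calls in these data.

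The members and lists were chosen with earlier results of these data known. Values on every array are given for members past the threshold, at an unadjusted p under 0.05, or with the largest difference in either direction in their role group. Outside the members, up to 3 called genes of a list are named, or the one with the largest difference among those above background on all 4 arrays, and Nqo1, Hmox1 and Vegfa. Alternatives were normexp background correction (on the median spot signal, offset 50), quantile, median and spike-in scaling, no filter and a filter on all 4 arrays, the mean of a gene's probes, each probe alone, an intensity trend, the value table, a replicate block, and leaving out each array.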

Additional observations from a re-analysis of the deposited data

How the results depend on the processing

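The 190 calls among all genes became 807 with normexp, 93 with quantile normalization, 567 with median scaling, 557 with spike-in scaling, 0 with no filter on dim probes (3165 at an unadjusted p under 0.05), 426 with a filter on all 4 arrays and 726 with an intensity trend. Leaving out each array gave 0 to 121. In the same order the calls among members, 0 as reported, were 2, 0, 1, 1, 0, 1 and 2, and 0 whichever array was left out. The median of the enzymes was 0.16 with median scaling and -0.045 with spike-in scaling, and ran from -0.018 to 0.076 when each array was left out; that of the HIF targets was 0.27 with normexp and 0.29 with median scaling, and ran from -0.0098 to 0.22; that of the HIF regulators was 0.19 with median scaling, and ran from -0.023 to 0.11. The scalings moved the median of all genes to 0.14 and -0.07. For the 11 named members, 163 values were recomputed: 149 kept their direction and side of the threshold, and 7 became called, all for Bnip3 or Slc2a1. The other 7 changed sign, called in neither fit: Slc2a3 (0.034) and Egln1 (0.055) with median scaling, Egln2 with spike-in scaling (-0.020), without DMSO replicate 2 (-0.016) and without DEM replicate 1 (-0.023), Slc2a3 without DMSO replicate 1 (0.020), and Pfkfb3 as the mean of its probes (-0.018). Part of the 149 was fixed in advance. The value table held the same intensities, and the intensity trend, replicate block and filters left the log2 differences as they were. With each array left out, Slc2a3 ran from -0.24 to 0.020 and Egln2 from -0.023 to 0.11. The cause of these shifts was not tested. Same-numbered replicates were not stated to be paired and their deviations correlated at 0.138 with 2 numbers only; the replicate block gave 143 calls and 0 members. Where an array was left out the lone sample was assumed to vary like the other group. Members near background (Slc16a3, Car9) have uncertain levels in DEM, and with 2 arrays per group differences of 2-fold can be missed.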

Other observations

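Among the HIF targets outside the members, Gbe1, the glycogen branching enzyme, had log2 levels of 3.16 on both DMSO arrays and 3.91 and 4.07 on the DEM arrays. Both DEM arrays were higher, a difference of 0.83 ± 0.10 (SE, n = 2 arrays per group; 95% interval 0.56 to 1.09; limma adjusted p = 0.0534), which missed the threshold. It was chosen after its values were seen.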
